A study of Mus musculus with 12 samples.

Results

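The comparison sets 3 p66High aggressive mammary tumours against 3 p66High parental mammary tumours of the mouse, which are 6 of the 12 tumours in the series. The tumours were chosen by the group names of their count columns, and all genes of the table were read. NIC cells are ErbB2-positive mouse breast cancer cells that, per the labels, have no p66ShcA of their own. p66ShcA is the longest of the proteins made from the Shc1 gene. The cells behind both p66High groups had been engineered to overexpress p66ShcA constitutively, so the parental tumours carry it too. The p66High aggressive tumours grew from cells that had passed through 2 rounds of selection in mammary fat pads and had then been taken back into culture. The p66High parental tumours grew from the engineered cells without selection. In the p66Low aggressive and p66Low parental tumours, 3 of each, the same pair of conditions was set up in cells labelled p66Low. The design text describes the selected populations of both lines as growing faster and metastasising more than the cells they came from.

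Every tumour grew after injection of 250000 cells into a mammary fat pad, and the hosts were FVB/N females aged 8 to 12 weeks. No more than 1 selected population per line is named, so the tumours of a group repeat the tumour and not the selection. Whether each tumour of a group had a host of its own is not stated, and replicates 1 and 2 of each p66High group carry the same number in their titles. The p-values therefore measure the spread between these tumours, part of which may be technical.

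ErbB2 is a receptor tyrosine kinase, and ShcA adaptors bind the activated receptor and pass its signal to the RAS-ERK pathway. p66ShcA is known for dampening that signal and for a role in mitochondrial redox chemistry. Passage of cancer cells through an animal is an established way to obtain populations with altered growth. A profile of a whole tumour holds the RNA of the cancer cells together with that of vessels, fibroblasts, fat and immune cells of the host.

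The aggressive libraries held 24662504 to 38350884 counts assigned to genes, and the parental libraries 29393253 to 76103880. Levels below are counts-per-million values (CPM), scaled for the composition of each library, and were not divided by gene length. Replicate 3 of the aggressive tumours stood apart: its typical log2 distance (root mean square over genes) was 0.53 and 0.49 from the other aggressive tumours, which lay 0.30 from each other, and 0.71 to 0.78 from the parental tumours. Shc1, counted over all its isoforms, measured 237, 246 and 774 CPM in the aggressive tumours, against 271, 234 and 223 CPM in the parental tumours. Replicate 3 was far above the other aggressive tumours, which overlapped with the parental ones, and the difference did not pass the test (log2 difference 0.79 ± 0.36, adjusted p = 0.219). All 6 tumours were above the p66Low means of 65.4 CPM (aggressive) and 64.5 CPM (parental). Erbb2 measured 66.4, 73.0 and 68.1 CPM in the aggressive tumours, against 73.5, 61.9 and 63.1 CPM in the parental tumours, and the groups overlapped. The epithelial markers Krt8, Krt18, Epcam and Cdh1 were abundant in all 6 tumours, with means of 758, 668, 623 and 261 CPM in the aggressive tumours and 661, 526, 631 and 267 CPM in the parental tumours.

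Of 19370 genes tested, 1150 (5.94%) differed between aggressive and parental tumours at a Benjamini-Hochberg adjusted p under 0.05 in edgeR's quasi-likelihood test. Higher in the aggressive tumours were 603 genes (3.11%) and lower were 547 (2.82%). These shares are the background for every list count below. The change was at least 2-fold for 333 of the higher and 309 of the lower genes. The median over all genes tested was 0.00 on the log2 scale, with quartiles at -0.26 and 0.23. The 3 aggressive and the 3 parental values did not overlap for 1148 of the 1150 genes, and for 32.6% of all genes tested. Leaving out any 1 of the 6 tumours lowered the count, to between 457 (without parental replicate 2) and 756 (without aggressive replicate 1). It was 568 without aggressive replicate 3. With the 2 tumours of each p66High group that share a title number summed into 1 library, it was 305. It was 2261 with DESeq2. Of 198 called genes that the naming rule or the text picks out, 127 lost the call in the summed fit and 38 with limma-voom. Of the 80 that stayed called with any 1 tumour left out, 13 lost it in the summed fit and 2 with limma-voom.

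**Figure D1:**
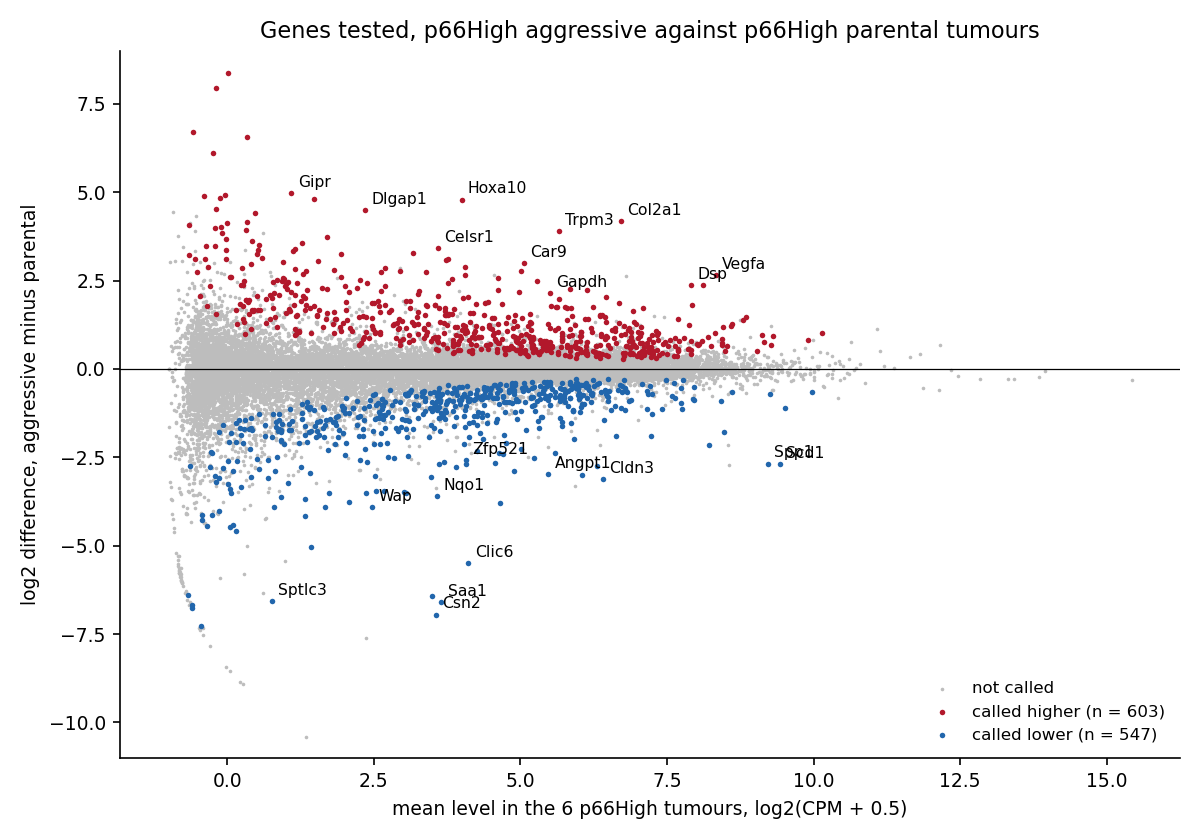
Each point is 1 of the 19370 genes tested. The x axis gives its mean level over the 6 p66High tumours as log2(CPM + 0.5), the y axis the fitted log2 difference, aggressive minus parental. Red points are the 603 genes called higher, blue points the 547 called lower, grey points the rest, and Hoxa10 and Csn2 lie near the extremes.

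The broadest rise among the gene lists examined was in genes of the hypoxia response and of glycolysis. Low oxygen stabilises the HIF transcription factors, which switch on genes for oxygen-independent energy supply, pH control and vessel growth. Of 20 hypoxia response genes tested, 11 were called higher and 0 lower, where 3.11% of all genes tested were called higher. Their list median was 1.49 on the log2 scale, against 0.00 for all genes. Of 21 glycolysis genes, 14 were called higher and 0 lower, with a median of 1.07. Car9, a membrane carbonic anhydrase that is a classic hypoxia marker, measured 25.8, 51.1 and 98.6 CPM in the aggressive tumours, against 7.80, 6.97 and 7.32 CPM in the parental tumours. The 3 aggressive values were widely spread while the parental values were nearly equal, and the groups did not overlap (log2 difference 2.98 ± 0.44, adjusted p = 0.00324). The error after ± is the standard error of the fitted log2 difference here and below.

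Vegfa, the main growth factor of blood vessels, measured 156, 382 and 1135 CPM in the aggressive tumours, against 92.4, 86.4 and 85.8 CPM in the parental tumours (log2 difference 2.66 ± 0.61, adjusted p = 0.0262). Its order among the aggressive tumours was that of Car9, lowest in replicate 1 and highest in replicate 3. Ak4, a mitochondrial adenylate kinase, showed the same order, with 39.9, 76.1 and 132 CPM in the aggressive tumours, against 25.7, 26.2 and 21.2 CPM in the parental tumours (log2 difference 1.76 ± 0.37, adjusted p = 0.0188). Egln1, the oxygen sensor that marks HIF for destruction, measured 60.5, 96.4 and 189.8 CPM in the aggressive tumours, against 37.9, 28.7 and 35.9 CPM in the parental tumours (log2 difference 1.76 ± 0.37, adjusted p = 0.0190). Car12, a second membrane carbonic anhydrase, was more even, at 724, 889 and 875 CPM in the aggressive tumours, against 460.3, 456 and 387 CPM in the parental tumours (log2 difference 0.93 ± 0.19, adjusted p = 0.0175). For these 5 genes every aggressive tumour lay above every parental tumour. Ero1l, which forms disulfide bonds in secreted proteins (2.39 ± 0.56, adjusted p = 0.0301), and the histone demethylase Kdm3a (0.94 ± 0.22, adjusted p = 0.0309) rose with them. Bnip3, which directs mitochondria to autophagy, passed the test narrowly (log2 difference 2.23 ± 0.59, adjusted p = 0.0493). Egln3, an oxygen sensor of the same family, did not (log2 difference 1.47 ± 0.40, adjusted p = 0.0515), nor did Ndrg1 (log2 difference 2.64 ± 0.79, adjusted p = 0.0752), whose 27.9, 85.8 and 459 CPM in the aggressive tumours ran from below to far above the 31.4, 28.8 and 31.3 CPM of the parental tumours. The HIF subunits were not called: Hif1a had a log2 difference of 0.32 ± 0.10 (adjusted p = 0.0759), Epas1 one of 0.08 ± 0.15 (adjusted p = 0.807) and Arnt one of 0.23 ± 0.15 (adjusted p = 0.399).

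The called glycolysis genes ran from uptake to lactate. Slc2a1, the glucose transporter GLUT1, measured 90.3, 146 and 312 CPM in the aggressive tumours, against 54.2, 59.7 and 62.3 CPM in the parental tumours (log2 difference 1.64 ± 0.39, adjusted p = 0.0313). Hk2, which traps glucose as glucose 6-phosphate, measured 66.4, 94.7 and 219.9 CPM in the aggressive tumours, against 47.0, 38.4 and 52.5 CPM in the parental tumours (log2 difference 1.46 ± 0.37, adjusted p = 0.0412). Replicate 3 held the highest value of both genes and the groups did not overlap. Pfkp, a phosphofructokinase at the committed step, measured 421, 553 and 644 CPM in the aggressive tumours, against 238, 259 and 197 CPM in the parental tumours (log2 difference 1.22 ± 0.24, adjusted p = 0.0130). Eno2, an enolase, measured 8.81, 17.5 and 59.2 CPM in the aggressive tumours, against 3.90, 4.78 and 2.91 CPM in the parental tumours (log2 difference 2.89 ± 0.60, adjusted p = 0.0175), the largest difference of the list. Ldha, which makes lactate, measured 993, 1235 and 1422 CPM in the aggressive tumours, against 720.2, 651 and 704 CPM in the parental tumours (log2 difference 0.81 ± 0.17, adjusted p = 0.0181). Pkm, the last step to pyruvate, had higher values in all 3 aggressive tumours but missed the threshold (log2 difference 0.76 ± 0.21, adjusted p = 0.0554). Gapdh (2.14 ± 0.35, adjusted p = 0.00577), Pgk1 (1.52 ± 0.31, adjusted p = 0.0155) and Gpi1 (1.20 ± 0.25, adjusted p = 0.0169) also rose. Gapdh and Pgk1 have many processed copies in the mouse genome, so reads may have been split or dropped and their levels are uncertain.

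The calls in these 2 lists changed with the tumours in the fit and with the test. Over all genes tested, leaving out any 1 tumour also lowered the count, from 1150 to between 457 and 756. The hypoxia count was 18 with DESeq2, 5 with limma-voom, 6 with only the 6 p66High tumours in the fit and 1 with tumours sharing a title number summed. The glycolysis count was 19 with DESeq2, 8 with limma-voom and 2 with tumours sharing a title number summed. Without aggressive replicate 3 the hypoxia list kept 1 called gene and a median of 0.88, and the glycolysis list 5 called genes and a median of 0.74. Over the 6 fits that each leave out 1 tumour, the counts ran from 1 to 18 (hypoxia) and from 1 to 17 (glycolysis). The highest counts came without aggressive replicate 1, and without any one of the parental tumours the hypoxia list kept 1. Car9 (2.37, adjusted p = 0.00554) and Gapdh (1.65, adjusted p = 0.0121) remained called without aggressive replicate 3 and in all 6 such fits. Vegfa lost its call without replicate 3 (1.60, adjusted p = 0.0810) and so did Ak4 (1.24, adjusted p = 0.0610), Egln1 (1.19, adjusted p = 0.0536), Car12 (0.88, adjusted p = 0.0545) and Ldha (0.68, adjusted p = 0.0640). These 5 were also lost without any one of the parental tumours (largest adjusted p 0.114 for Vegfa), and so were Ero1l, Kdm3a, Bnip3, Slc2a1 and Hk2 (adjusted p up to 0.196 for Bnip3). Pfkp was lost only without parental replicate 3 (adjusted p = 0.0530), and Pgk1, Gpi1 and Eno2 were lost without any one of the parental tumours (largest adjusted p 0.0626, 0.0722 and 0.0722).

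**Figure D2:**
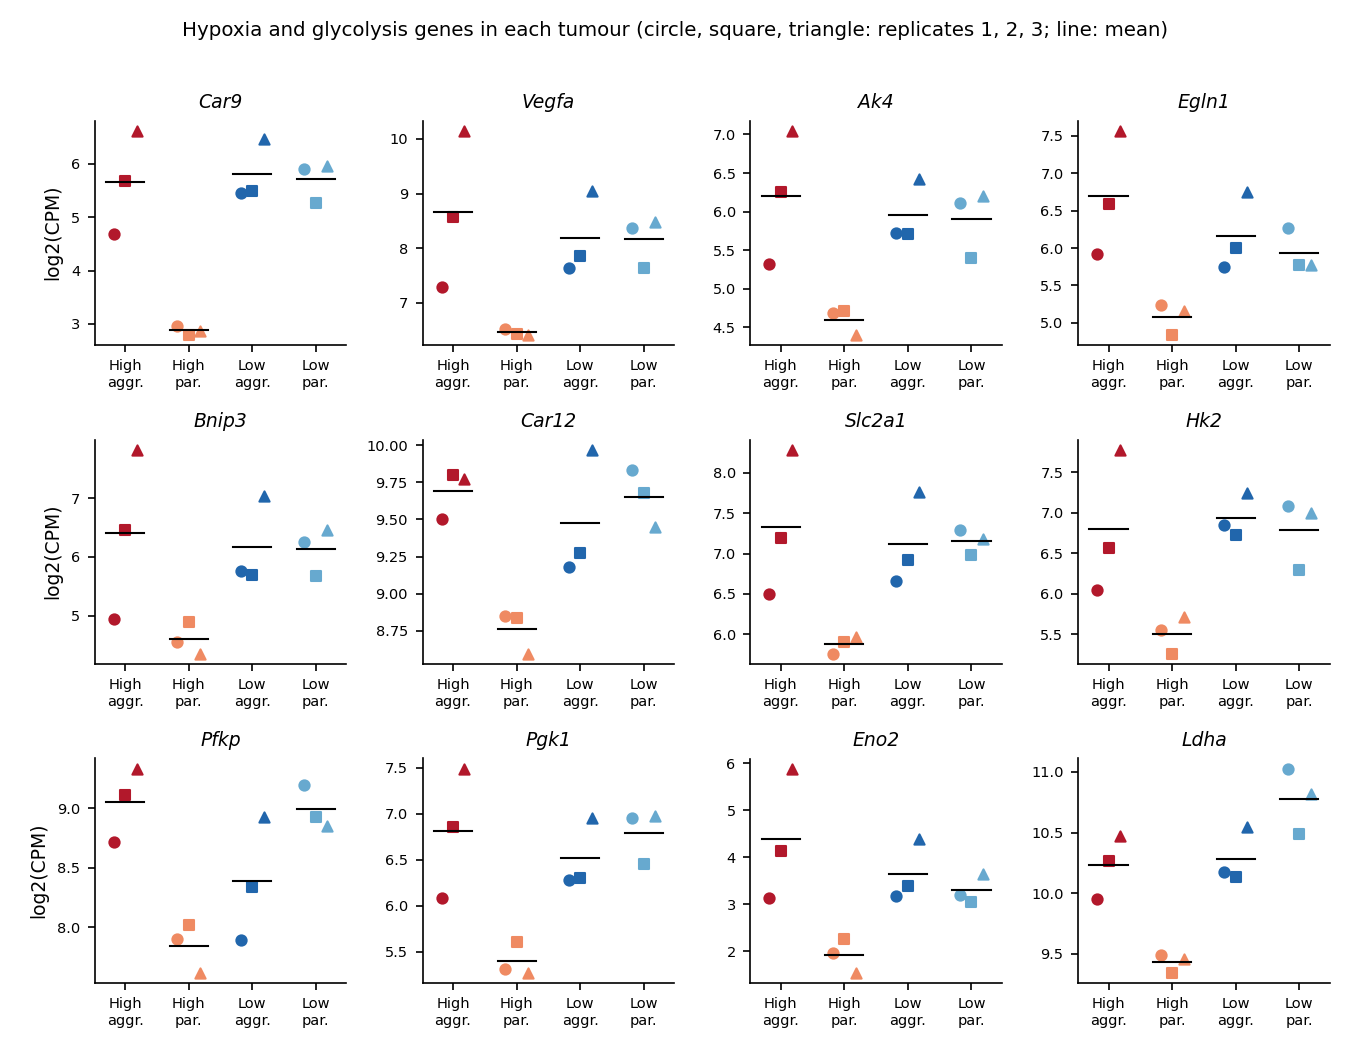
Levels of 12 genes as log2(CPM) on the y axis in each of the 12 tumours, grouped on the x axis as p66High aggressive, p66High parental, p66Low aggressive and p66Low parental. Circles, squares and triangles are replicates 1, 2 and 3 and lines are group means of the log2 levels. The p66High parental tumours hold the lowest mean of each of the 12 genes, and aggressive replicate 1 is the lowest of its group in all 12.

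Car9 averaged 58.5 ± 36.9 CPM in the p66High aggressive tumours and 7.36 ± 0.420 CPM in the p66High parental tumours (SD, n = 3 each). Its means in the p66Low tumours were 59.0 CPM (aggressive) and 53.5 CPM (parental). Selection of the p66Low cells left Car9 without a detected change (log2 difference 0.14, adjusted p = 0.858), and the 2 selection effects differed for Car9 (difference 2.84, adjusted p = 0.0131). The same held for Gapdh (2.05, adjusted p = 0.0204), Pfkp (1.77, adjusted p = 0.00976) and Ldha (1.31, adjusted p = 0.00906). It was not shown for Vegfa (2.54, adjusted p = 0.0642) or Egln1 (1.48, adjusted p = 0.0839). The difference of the 2 effects was called for 5 of 20 hypoxia genes and 10 of 21 glycolysis genes, against 12.4% of all genes tested. The p66High tumours that set these lists apart also enter this difference, so the list counts are a description and no separate support.

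The promoters of 5 of these genes show where the core letters bound by HIF occur. One motif searched was ACGTG, which reads CACGT when it lies on the opposite strand. The other was GCGTG, with CACGC as its opposite strand. Windows run from 250 bases before to 50 bases after the start in RefSeq (GRCm38.p6). At least 1 match was present in 21 of the 25 called hypoxia and glycolysis genes (84.0%), in all 11 list members with a window that were not called, and in 64.5% of all genes tested that have a window. The windows shown are those of the 3 hypoxia genes and 2 glycolysis genes of smallest p with a single window, and capitals mark the matches. Car9 has 1 match at position -18 from the start, Egln1 2, Gapdh 3, Pfkp 4 and Car12 0.
Car9, chr4:43506776-43507075, + strand: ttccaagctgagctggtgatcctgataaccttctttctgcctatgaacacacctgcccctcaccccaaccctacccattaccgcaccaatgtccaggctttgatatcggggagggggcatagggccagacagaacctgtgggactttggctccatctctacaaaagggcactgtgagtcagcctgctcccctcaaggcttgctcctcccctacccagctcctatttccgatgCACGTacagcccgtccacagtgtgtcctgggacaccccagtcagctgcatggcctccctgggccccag
Car12, chr9:66713436-66713735, + strand: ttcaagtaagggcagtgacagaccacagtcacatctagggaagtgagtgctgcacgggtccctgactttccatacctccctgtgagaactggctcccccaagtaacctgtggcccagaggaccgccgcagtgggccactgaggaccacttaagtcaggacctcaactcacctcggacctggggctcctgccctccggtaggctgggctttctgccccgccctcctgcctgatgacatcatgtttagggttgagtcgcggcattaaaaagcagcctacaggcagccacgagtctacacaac
Egln1, chr8:124949205-124949504, - strand: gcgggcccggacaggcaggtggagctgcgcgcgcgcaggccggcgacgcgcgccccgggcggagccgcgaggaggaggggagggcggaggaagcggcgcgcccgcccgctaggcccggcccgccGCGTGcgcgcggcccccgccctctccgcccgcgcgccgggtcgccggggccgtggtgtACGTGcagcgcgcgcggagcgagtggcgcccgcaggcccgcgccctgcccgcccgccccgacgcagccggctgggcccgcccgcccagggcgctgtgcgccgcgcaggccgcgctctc
Gapdh, chr6:125165724-125166023, - strand: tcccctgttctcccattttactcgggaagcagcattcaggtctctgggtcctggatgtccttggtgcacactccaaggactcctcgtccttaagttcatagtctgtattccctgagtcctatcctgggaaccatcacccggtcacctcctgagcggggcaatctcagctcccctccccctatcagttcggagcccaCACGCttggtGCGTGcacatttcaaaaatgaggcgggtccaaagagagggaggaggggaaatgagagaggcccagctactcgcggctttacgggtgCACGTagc
Pfkp, chr13:6648722-6649021, - strand: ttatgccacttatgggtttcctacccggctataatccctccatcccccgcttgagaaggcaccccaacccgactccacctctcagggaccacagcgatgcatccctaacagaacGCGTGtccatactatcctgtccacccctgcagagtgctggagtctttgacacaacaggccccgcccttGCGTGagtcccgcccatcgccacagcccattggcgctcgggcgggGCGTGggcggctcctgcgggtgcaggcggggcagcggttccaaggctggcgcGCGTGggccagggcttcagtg
Car12 and Car9 thus rose in the same tumours with 0 and 1 match. A match of these letters is a description of the window, and no binding was measured.

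Among 18 angiogenic factors and receptors, 3 were called higher and 2 lower. Besides Vegfa, Angpt2, which destabilises vessels by blocking the TIE2 receptor, was higher at 10.7, 27.4 and 15.2 CPM in the aggressive tumours, against 7.44, 7.74 and 6.35 CPM in the parental tumours (log2 difference 1.31 ± 0.29, adjusted p = 0.0215). Angpt1, the ligand that activates TIE2, moved the other way, at 9.57, 10.8 and 9.36 CPM in the aggressive tumours, against 57.0, 107 and 70.7 CPM in the parental tumours (log2 difference -2.97 ± 0.46, adjusted p = 0.00400). The 3 aggressive values of Angpt1 were close together and far below all 3 parental values. Vegfc, the lymphatic growth factor, was also lower, at 2.94, 2.16 and 2.37 CPM in the aggressive tumours, against 5.82, 4.82 and 5.43 CPM in the parental tumours (log2 difference -1.10 ± 0.21, adjusted p = 0.0106). Vegfb rose on a low level (log2 difference 0.84 ± 0.20, adjusted p = 0.0320). Both falls held with any 1 tumour left out (largest adjusted p 0.0202 and 0.0446), but Vegfc lost the call with tumours sharing a title number summed (adjusted p = 0.0647). The rises did not: Angpt2 reached 0.0816, Vegfb 0.114 and Vegfa 0.114.

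All 18 endothelial markers tested had a negative log2 difference, with a median of -0.67. Summed over the markers, the level came to 279, 294 and 166 CPM in the aggressive tumours, against 427, 371 and 380 CPM in the parental tumours, and the groups did not overlap. Egfl7, a protein secreted by endothelial cells, was the 1 member that passed the test (log2 difference -1.20 ± 0.30, adjusted p = 0.0386), and it did not pass with any 1 of the 6 tumours left out (adjusted p up to 0.151). Pecam1, the defining CD31, was not called (log2 difference -0.73 ± 0.34, adjusted p = 0.230). In a whole tumour, fewer cells of a type and less RNA per cell cannot be told apart.

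Several genes of milk production fell. The milk proteins are made by luminal cells of the mammary gland under prolactin, and are often still expressed in mammary tumours. Of 12 genes tested, 6 were called lower and 0 higher, with a median of -2.45. Csn2, beta-casein, measured 0.203, 0.314 and 0 CPM in the aggressive tumours, against 11.1, 15.7 and 40.6 CPM in the parental tumours (log2 difference -6.95 ± 1.11, adjusted p = 0.00490), the largest change among the called members. Wap, the whey acidic protein, measured 0.685, 0.746 and 0.431 CPM in the aggressive tumours, against 4.69, 13.6 and 10.2 CPM in the parental tumours (log2 difference -3.91 ± 0.49, adjusted p = 0.00125). Btn1a1, a protein of the milk fat globule membrane, measured 21.8, 27.6 and 12.3 CPM in the aggressive tumours, against 90.0, 117 and 206 CPM in the parental tumours (log2 difference -2.74 ± 0.36, adjusted p = 0.00154). For all 3 the highest aggressive value lay well below the lowest parental value. Csn1s1, alpha-casein, had 6.42, 14.0 and 24.4 CPM in the aggressive tumours, against 68.1, 101 and 183 CPM in the parental tumours (log2 difference -2.99 ± 0.65, adjusted p = 0.0210). Mfge8, also of the milk fat globule, had 69.5, 115 and 145 CPM in the aggressive tumours, against 399, 566 and 497 CPM in the parental tumours (log2 difference -2.15 ± 0.44, adjusted p = 0.0166). Glycam1, listed here but also a gene of lymph node vessels, was read at 0, 0 and 0.173 CPM in the aggressive tumours, against 0.496, 0.0704 and 27.4 CPM in the parental tumours, and was not called (log2 difference -7.61 ± 2.89, adjusted p = 0.147). Csn1s2a fell as well (-2.77 ± 0.62, adjusted p = 0.0238).

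Of the 12 differences 11 were negative. Csn3, kappa-casein, measured 2511, 2571 and 2846 CPM in the aggressive tumours, against 2094, 1517 and 1981 CPM in the parental tumours, and its difference did not pass the test (log2 difference 0.50 ± 0.24, adjusted p = 0.233). Lalba, alpha-lactalbumin, did not pass either (log2 difference -0.41 ± 0.24, adjusted p = 0.347). The regulators of the milk genes were not called: Stat5a (-0.09 ± 0.11, adjusted p = 0.661), Elf5 (-0.08 ± 0.13, adjusted p = 0.757) and the prolactin receptor Prlr (0.20 ± 0.14, adjusted p = 0.424) all had overlapping groups. Csn2, Wap and Btn1a1 held with any 1 tumour left out, and the list's count ran from 3 to 6. Csn1s1, Csn1s2a and Mfge8 each lost the call in 3 to 5 of these fits, with adjusted p up to 0.0753, 0.0920 and 0.0668. Csn2 lost the call with limma-voom (adjusted p = 0.0973), and the list's count was 3 with tumours sharing a title number summed.

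Acute phase and secretory defence genes fell beside them, 6 of 16 called lower and 0 higher, with a median of -1.12. Saa1 and Saa2 encode the serum amyloids A. Saa2 measured 0.305, 0.236 and 0.173 CPM in the aggressive tumours, against 12.5, 35.1 and 15.9 CPM in the parental tumours (log2 difference -6.41 ± 0.69, adjusted p = 6.66e-04). Saa1 measured 0.355, 0.0786 and 0.259 CPM in the aggressive tumours, against 13.6, 42.3 and 15.9 CPM in the parental tumours (log2 difference -6.60 ± 0.97, adjusted p = 0.00314). The aggressive values of both were near the limit of counting, and since the 2 genes are near-identical copies, the split of reads between them is uncertain. Slpi, a secreted protease inhibitor, measured 0.660, 0.943 and 2.20 CPM in the aggressive tumours, against 9.77, 15.6 and 16.2 CPM in the parental tumours (log2 difference -3.49 ± 0.67, adjusted p = 0.0125). Cp, the copper-carrying ferroxidase ceruloplasmin, measured 119, 189.7 and 170.4 CPM in the aggressive tumours, against 493, 666 and 488 CPM in the parental tumours (log2 difference -1.78 ± 0.36, adjusted p = 0.0161). Muc1, the apical mucin (-1.41 ± 0.33, adjusted p = 0.0290), and Lbp, which presents lipopolysaccharide (-0.63 ± 0.15, adjusted p = 0.0355), were also lower. Lcn2, which binds iron carriers of bacteria, had overlapping groups (log2 difference 0.12 ± 0.22, adjusted p = 0.802). Cebpa, a transcription factor of acute phase and fat cell genes, measured 32.6, 32.8 and 24.4 CPM in the aggressive tumours, against 58.6, 68.1 and 54.5 CPM in the parental tumours (log2 difference -1.01 ± 0.15, adjusted p = 0.00302), whereas Cebpb (0.17 ± 0.12, adjusted p = 0.430) and Stat3 (0.01 ± 0.12, adjusted p = 0.964) were not called. Saa1, Saa2 and Cebpa held with any 1 tumour left out. Slpi was lost without aggressive replicate 2 (adjusted p = 0.0538), and Cp, Muc1 and Lbp were lost in 3 or more of these fits, with adjusted p up to 0.0668, 0.0959 and 0.115.

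Enzymes and regulators of fatty acid synthesis were lower, 5 of 16 called and 0 higher, with a median of -0.36. Scd1, which makes monounsaturated fatty acids, measured 213, 133 and 204 CPM in the aggressive tumours, against 1436, 1190.2 and 947 CPM in the parental tumours (log2 difference -2.70 ± 0.54, adjusted p = 0.0154). Thrsp, a lipogenic nuclear protein, measured 62.7, 69.9 and 57.4 CPM in the aggressive tumours, against 156, 288 and 268 CPM in the parental tumours (log2 difference -1.91 ± 0.22, adjusted p = 9.57e-04). Srebf1, the transcription factor that drives lipogenesis, measured 402, 491 and 506 CPM in the aggressive tumours, against 793, 925 and 1287 CPM in the parental tumours (log2 difference -1.10 ± 0.17, adjusted p = 0.00443). In each case the groups were clearly apart. The acetyl-CoA carboxylases followed, Acaca with -0.77 ± 0.14 (adjusted p = 0.0100) and Acacb with -1.34 ± 0.28 (adjusted p = 0.0181). Fasn, the fatty acid synthase, had lower values in all 3 aggressive tumours without passing the test (log2 difference -0.47 ± 0.14, adjusted p = 0.0667). Thrsp and Srebf1 held with any 1 tumour left out. Acaca was lost without parental replicate 2 (adjusted p = 0.0513), and Scd1 and Acacb were lost in 3 and 4 of these fits, without parental replicate 2, aggressive replicate 2 and aggressive replicate 3 among them (adjusted p up to 0.0622 and 0.0771).

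Adipocyte markers moved with these lists. Summed over the list, they reached 304, 159 and 90.8 CPM in the aggressive tumours, against 783, 680.4 and 347 CPM in the parental tumours, with no overlap. Of 15 markers, 14 had a negative difference and the median was -2.49. The 2 called members were Retn, the fat hormone resistin (log2 difference -5.04 ± 1.34, adjusted p = 0.0487), and Lpl, lipoprotein lipase (log2 difference -2.27 ± 0.58, adjusted p = 0.0433). Both lost the call in 5 or 6 of the fits with 1 tumour left out (adjusted p up to 0.154 and 0.156), and no member was called when libraries were scaled by their size alone. Adipoq, the defining adiponectin, had 4.70, 1.02 and 0 CPM in the aggressive tumours, against 25.2, 29.0 and 8.25 CPM in the parental tumours (log2 difference -3.37 ± 1.33, adjusted p = 0.162). The part of fat cells in the milk, acute phase and lipid values was not tested.

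**Figure D3:**
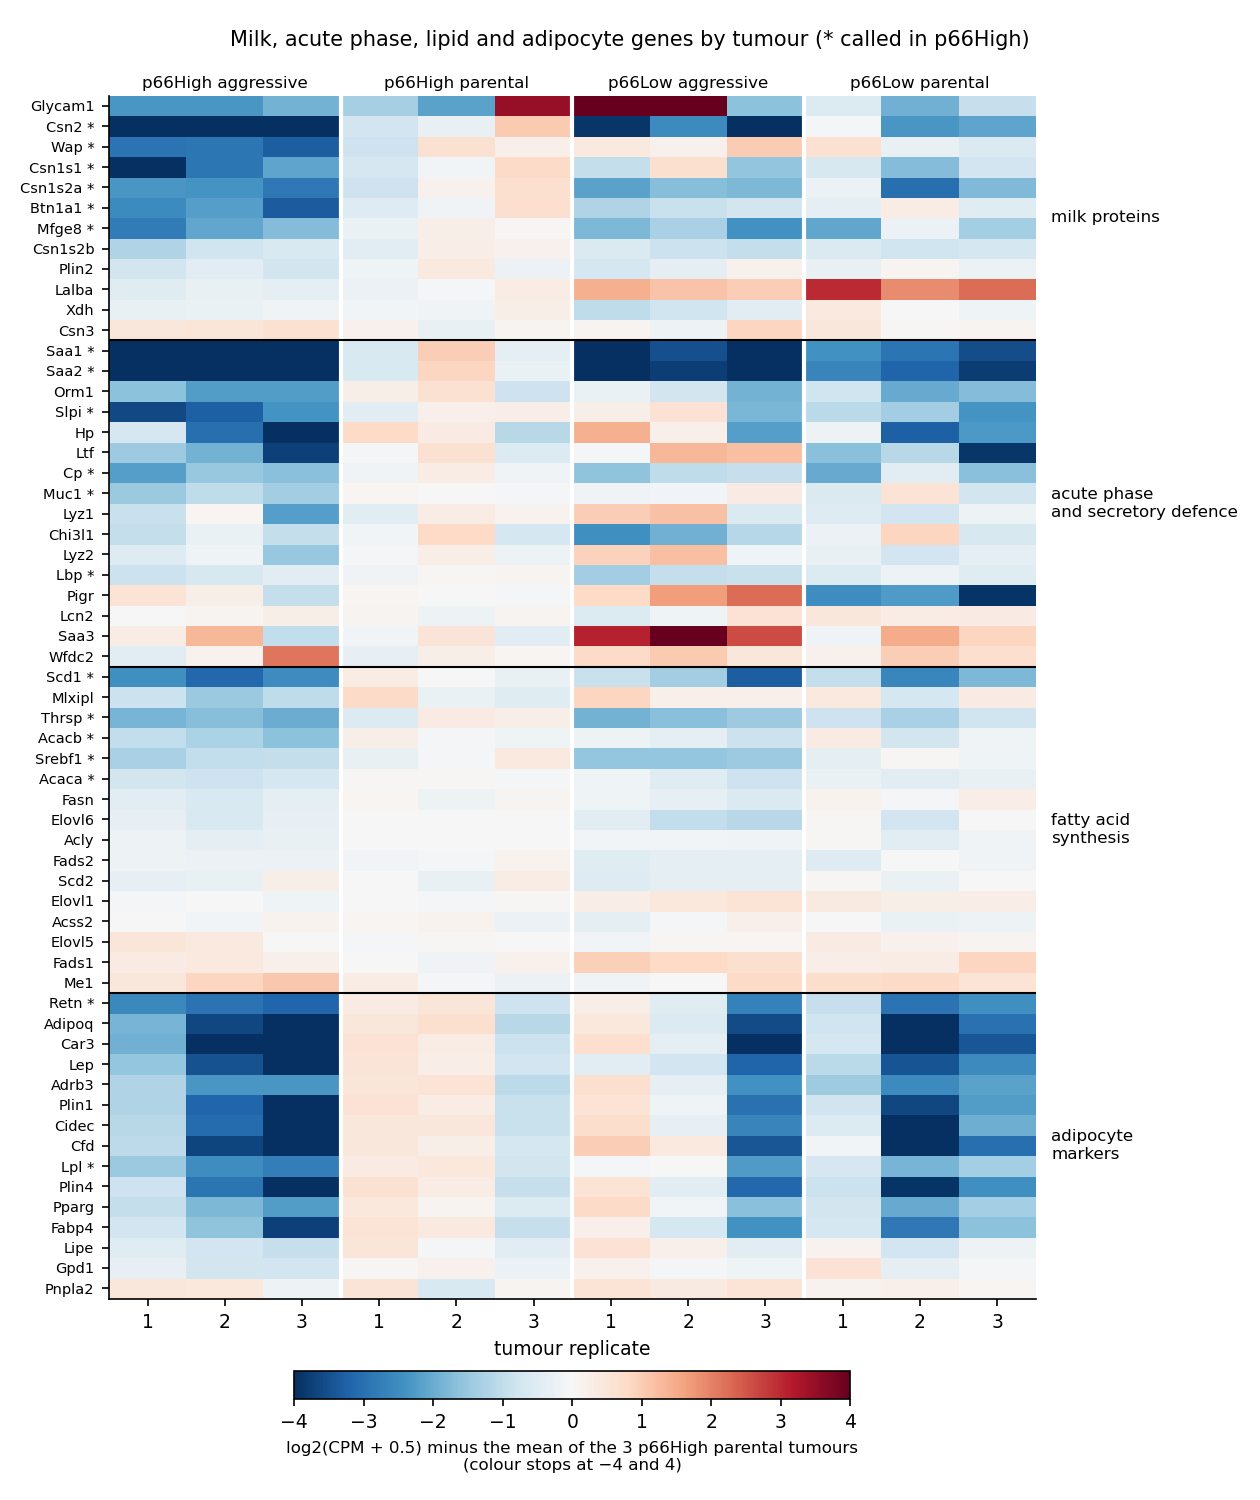
Levels of all tested members of 4 lists in the 12 tumours, as log2(CPM + 0.5) minus the mean of the 3 p66High parental tumours. Rows are genes within each list, ordered by the p66High log2 difference, with an asterisk on the called ones, and columns are tumours. Blue is lower and red higher, with the colour stopping at -4 and 4, and most called genes are blue in all 3 p66High aggressive tumours, while adipocyte markers deepen over the 3 aggressive columns and are also low in single p66Low tumours.

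Among ligands of the ErbB receptors, a few rose. Of 10 tested, 3 were called higher and 0 lower, with a median of 0.28. Nrg1, neuregulin 1, a ligand of the ErbB3 and ErbB4 partners of ErbB2, measured 41.0, 36.6 and 19.2 CPM in the aggressive tumours, against 9.88, 7.25 and 9.61 CPM in the parental tumours (log2 difference 1.85 ± 0.35, adjusted p = 0.0119). Hbegf, an EGF receptor ligand, measured 7.28, 8.80 and 20.1 CPM in the aggressive tumours, against 4.74, 3.83 and 5.66 CPM in the parental tumours (log2 difference 1.34 ± 0.33, adjusted p = 0.0370). Nrg2, a second neuregulin, measured 51.1, 44.9 and 38.0 CPM in the aggressive tumours, against 29.0, 28.6 and 26.4 CPM in the parental tumours (log2 difference 0.68 ± 0.17, adjusted p = 0.0436). Each had 3 aggressive values above 3 parental ones. Of 28 genes of the Shc and ErbB signalling list, Shc4, a neural member of the Shc adaptor family, was the 1 called gene, at 75.7, 68.3 and 94.9 CPM in the aggressive tumours, against 31.8, 28.1 and 32.2 CPM in the parental tumours (log2 difference 1.37 ± 0.23, adjusted p = 0.00661).

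Genes that ERK switches on, several of them feedback inhibitors, followed, with 4 of 20 called higher, 1 lower and a median of 0.62. Spry4, an inhibitor of receptor signalling to RAS, measured 77.9, 58.1 and 74.8 CPM in the aggressive tumours, against 22.7, 11.2 and 26.9 CPM in the parental tumours (log2 difference 1.79 ± 0.30, adjusted p = 0.00636). Etv5, an ETS transcription factor, measured 349, 259 and 304 CPM in the aggressive tumours, against 180.3, 165 and 184 CPM in the parental tumours (log2 difference 0.78 ± 0.14, adjusted p = 0.00739). The groups did not overlap for either gene. Dusp6, the ERK phosphatase (0.85 ± 0.20, adjusted p = 0.0300), and Etv4 (1.12 ± 0.27, adjusted p = 0.0353) were higher, and Dusp5, a nuclear ERK phosphatase, was lower (-0.70 ± 0.16, adjusted p = 0.0274). Shc4, Spry4 and Etv5 held with any 1 tumour left out, though Shc4 was lost in the summed fit (adjusted p = 0.0577). Nrg1 was lost without parental replicate 2 (adjusted p = 0.0668), and Hbegf, Nrg2, Dusp6, Etv4 and Dusp5 were lost in 4 or 5 of these fits, with adjusted p up to 0.145, 0.136, 0.105, 0.151 and 0.0912. With 1 tumour left out, the ligand count ran from 0 to 2 and the ERK count from 2 to 4.

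Transcription factors of body patterning gave the change of smallest p. Hox factors set position along the body axis, and genes of the A cluster lie side by side on chromosome 6. Hoxa10 measured 30.5, 29.3 and 29.9 CPM in the aggressive tumours, against 1.01, 1.20 and 1.05 CPM in the parental tumours (log2 difference 4.79 ± 0.26, adjusted p = 1.55e-05), the smallest p of all protein-coding genes whose mean reaches 2 CPM in either group. The 3 values within each group were nearly equal. Hoxa9 measured 11.0, 9.0 and 11.4 CPM in the aggressive tumours, against 1.35, 1.86 and 1.13 CPM in the parental tumours (log2 difference 2.86 ± 0.27, adjusted p = 3.04e-04), and the low-level Hoxa11 measured 1.22, 0.864 and 3.02 CPM in the aggressive tumours, against 0.0451, 0.0704 and 0.105 CPM in the parental tumours (log2 difference 4.40 ± 0.68, adjusted p = 0.0120). Hoxa5 rose less (log2 difference 1.03 ± 0.26, adjusted p = 0.0382), and Hoxa7, which lies between Hoxa5 and Hoxa9, had overlapping groups (log2 difference -0.61 ± 0.55, adjusted p = 0.548). Of 25 Hox genes tested, 4 were called higher and 1 lower, with a median of 0.00. The lower one was Hoxb9, with 0 counts in the aggressive tumours and 50 in the parental tumours together, which is at least 9.85-fold lower against a floor of 3 counts over the group. Hoxa9 and Hoxa10 held with any 1 tumour left out. Hoxa11 was lost without parental replicate 1 or 2 (adjusted p up to 0.0664), and Hoxa5 and Hoxb9 were lost without any one of the 6 tumours (adjusted p up to 0.128 and 0.102).

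Of 15 Sox factors tested, 3 were called higher and 0 lower. Sox10, expressed in neural crest and in mammary progenitor cells, measured 168, 163 and 197 CPM in the aggressive tumours, against 80.1, 53.3 and 74.9 CPM in the parental tumours (log2 difference 1.34 ± 0.16, adjusted p = 0.00118). Every aggressive tumour lay well above the highest parental value. Sox8, its close relative (1.27 ± 0.31, adjusted p = 0.0332), and Sox12 (0.84 ± 0.20, adjusted p = 0.0322) also rose, and both lost the call in 5 of the 6 fits with 1 tumour left out (adjusted p up to 0.137 and 0.114). Sox10 is also a Schwann cell marker. Of 9 nerve and Schwann cell markers, Ncmap was the other one called (log2 difference 0.90 ± 0.19, adjusted p = 0.0173; lost in 4 of these fits), while the myelin gene Mbp had overlapping groups, with means of 45.2 CPM (aggressive) and 43.7 CPM (parental).

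Epithelial junction genes split. Cldn3, a claudin of tight junctions, measured 5.63, 22.2 and 25.2 CPM in the aggressive tumours, against 148, 164 and 144 CPM in the parental tumours (log2 difference -3.12 ± 0.42, adjusted p = 0.00190). Cldn4, its neighbour on chromosome 5, measured 41.3, 43.0 and 42.0 CPM in the aggressive tumours, against 81.2, 110.5 and 72.7 CPM in the parental tumours (log2 difference -1.06 ± 0.28, adjusted p = 0.0442). Dsp, desmoplakin, which anchors desmosomes to keratin filaments, moved up, at 383, 396 and 424 CPM in the aggressive tumours, against 135, 55.7 and 43.9 CPM in the parental tumours (log2 difference 2.36 ± 0.38, adjusted p = 0.00480). The 3 aggressive values of Dsp were close together, while parental replicate 1 was the highest of its group and still far below them. Grhl2, an epithelial transcription factor, rose slightly (log2 difference 0.41 ± 0.10, adjusted p = 0.0387). Of 20 epithelial genes of the epithelial-mesenchymal transition, these 2 were called higher and these 2 lower, with a median of -0.17. Of 18 mesenchymal genes, Twist1 was the 1 called (log2 difference 0.59 ± 0.12, adjusted p = 0.0160), with a median of -0.14. Cldn3 and Dsp held with any 1 tumour left out, while Cldn4 and Grhl2 were lost without any one of the 6 tumours (adjusted p up to 0.164 and 0.110). Twist1 was lost in 3 of these fits, aggressive replicate 3 among them (adjusted p up to 0.0721).

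Among 13 keratins tested, Krt23 was called higher, at 56.9, 48.0 and 46.2 CPM in the aggressive tumours, against 26.1, 20.3 and 14.3 CPM in the parental tumours (log2 difference 1.32 ± 0.21, adjusted p = 0.00509). Krt15, a keratin of basal and progenitor cells, was lower, at 0.685, 0.314 and 1.98 CPM in the aggressive tumours, against 8.91, 12.2 and 11.0 CPM in the parental tumours (log2 difference -3.46 ± 0.74, adjusted p = 0.0202), and so was Krt10 (log2 difference -1.38 ± 0.30, adjusted p = 0.0216). No other keratin was called, where 3.11% of all genes tested were called higher and 2.82% lower. Krt15 and Krt10 lost the call in 4 and 6 of the fits with 1 tumour left out (adjusted p up to 0.0768 and 0.0770), while Krt23 held in all 6. The myoepithelial markers had a negative difference in 10 of 11 genes and a median of -1.47. Oxtr, the oxytocin receptor, was the 1 called member (log2 difference -2.13 ± 0.37, adjusted p = 0.00718), and it held with any 1 tumour left out but not in the summed fit (adjusted p = 0.0800). Krt5 (log2 difference -1.61 ± 0.60, adjusted p = 0.143), Krt14 (log2 difference -1.92 ± 0.60, adjusted p = 0.0863) and Trp63 (log2 difference -1.47 ± 0.45, adjusted p = 0.0791) had lower values in all 3 aggressive tumours without passing the test.

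In the matrix, Col11a1, a fibril collagen, was higher, at 1396, 1318 and 1816 CPM in the aggressive tumours, against 761, 731 and 749.6 CPM in the parental tumours (log2 difference 1.01 ± 0.15, adjusted p = 0.00289). It was 1 of 2 members called higher among 26 collagens and matrix genes, the other being Lama4 (log2 difference 0.41 ± 0.10, adjusted p = 0.0400), while Col7a1, the anchoring fibril collagen, was lower (log2 difference -0.93 ± 0.24, adjusted p = 0.0411). The median of the list was -0.16. Over all genes tested, 3.11% were called higher and 2.82% lower, so list counts this small are a description. Lama4 and Col7a1 each lost the call in 5 of the fits with 1 tumour left out (adjusted p up to 0.179 and 0.133). Tgfb2, a TGF-beta ligand, measured 60.0, 75.4 and 72.3 CPM in the aggressive tumours, against 39.0, 28.4 and 34.3 CPM in the parental tumours (log2 difference 1.03 ± 0.16, adjusted p = 0.00399). Of 18 TGF-beta targets 2 were called higher and 1 lower, the lower one being Ltbp2, which binds matrix fibrils (log2 difference -1.05 ± 0.18, adjusted p = 0.00677). Among genes often tied to metastasis, Cd44, the hyaluronan receptor, was higher (log2 difference 0.64 ± 0.13, adjusted p = 0.0169). Spp1, osteopontin, was lower, at 75.4, 224 and 185 CPM in the aggressive tumours, against 616, 1639 and 844 CPM in the parental tumours (log2 difference -2.68 ± 0.59, adjusted p = 0.0227). Of 19 genes of that list, 1 was called higher and 3 lower. Cd44 and Spp1 were each lost in 3 of these fits, aggressive replicate 3 and parental replicate 2 included (adjusted p up to 0.0752 and 0.0968), while Col11a1, Tgfb2 and Ltbp2 held in all 6, and Ltbp2 was lost in the summed fit (adjusted p = 0.0656).

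Cell cycle genes had positive differences of small size. Of 22 G1/S genes 21 and of 24 G2/M genes 24 had a positive difference, with medians of 0.38 and 0.40, and edgeR called 0 of either list. DESeq2 called 1 G1/S gene and 3 G2/M genes higher, and limma-voom called 0. At an unadjusted p under 0.05 there were 7 in each list, where 22.7% of all genes tested reached that level. Mki67, the proliferation marker, measured 283, 253 and 267 CPM in the aggressive tumours, against 217, 175 and 211 CPM in the parental tumours (log2 difference 0.42 ± 0.23, adjusted p = 0.315). Cdkn2a, which encodes the p16INK4a and p19ARF inhibitors, was called higher, at 88.8, 77.6 and 98.4 CPM in the aggressive tumours, against 31.4, 15.9 and 32.4 CPM in the parental tumours (log2 difference 1.73 ± 0.26, adjusted p = 0.00387), and it held with any 1 tumour left out. It was also higher after selection of the p66Low cells (2.18, adjusted p = 7.31e-04). Of 22 p53 targets, Ccng1 (log2 difference -0.40 ± 0.08, adjusted p = 0.0110) and Fas (log2 difference -1.33 ± 0.35, adjusted p = 0.0461) were lower and 0 higher, with a median of -0.03. Over all genes tested 2.82% were called lower. Ccng1 was lost without aggressive replicate 2 (adjusted p = 0.0517), and Fas without any one of the 6 tumours (adjusted p up to 0.155).

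Nqo1, a quinone reductase and a standard NRF2 target, measured 1.32, 1.73 and 2.24 CPM in the aggressive tumours, against 17.3, 29.4 and 16.6 CPM in the parental tumours (log2 difference -3.59 ± 0.33, adjusted p = 3.04e-04). It fell as much after selection of the p66Low cells, with a log2 difference of -3.36 (adjusted p = 1.76e-04) and means of 2.25 CPM (aggressive) and 23.3 CPM (parental). The difference between the effects was -0.23 (adjusted p = 0.762). Of 17 NRF2 targets tested, Nqo1 and Cbr1 were called lower and 0 higher, with a median of -0.02, and Cbr1 lies in distal chromosome 16.

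Interferon and immune genes were called in few cases. Of 28 type I interferon response genes edgeR called 0, and 4 had an unadjusted p under 0.05. DESeq2 called 1 lower and limma-voom 0. Their median was -0.74, and 26 of the 28 differences were negative. Ifit1 measured 9.37, 11.3 and 0.604 CPM in the aggressive tumours, against 18.3, 23.1 and 9.24 CPM in the parental tumours (log2 difference -1.23 ± 0.83, adjusted p = 0.412), with the lowest value in aggressive replicate 3 and overlap between the groups. Of 27 genes of antigen presentation 0 were called by edgeR, DESeq2 or limma-voom, and 0 had an unadjusted p under 0.05. Cxcl5, a chemokine for neutrophils, was higher, at 6.32, 5.70 and 6.17 CPM in the aggressive tumours, against 0.789, 0.422 and 0.656 CPM in the parental tumours (log2 difference 3.26 ± 0.32, adjusted p = 3.64e-04), and was also higher after selection of the p66Low cells (2.94, adjusted p = 6.10e-04). Il1b, the inflammatory cytokine, was lower, at 1.09, 1.26 and 0.604 CPM in the aggressive tumours, against 3.02, 4.47 and 2.64 CPM in the parental tumours (log2 difference -1.76 ± 0.37, adjusted p = 0.0182), and lost the call in 3 of the fits with 1 tumour left out (adjusted p up to 0.0731).

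Markers of immune cells were also called in few cases. T cell markers summed to 20.2, 12.3 and 5.91 CPM in the aggressive tumours, against 10.2, 10.3 and 71.3 CPM in the parental tumours, and 0 of 20 were called by edgeR, DESeq2 or limma-voom, with 1 at an unadjusted p under 0.05. Lymph node stroma markers summed to 6.55, 2.95 and 2.42 CPM in the aggressive tumours, against 6.77, 3.87 and 65.2 CPM in the parental tumours, and Ccl19, Cr2 and Fcer2a were at 0 in all 3 aggressive tumours. The high values of both lists were in parental replicate 3 alone. Without that tumour 592 genes were called, and 586 without it and the p66Low aggressive replicates 1 and 2, which were also high in lymph node genes. Macrophage markers summed to 1045, 1124 and 820.3 CPM in the aggressive tumours, against 1256, 1464 and 1050.2 CPM in the parental tumours. Of 16, Cd14 (log2 difference -1.02 ± 0.23, adjusted p = 0.0228) and Mertk (log2 difference -0.89 ± 0.21, adjusted p = 0.0295) were called lower, and both lost the call in 5 of the fits with 1 tumour left out. Neutrophil markers summed to 216, 157 and 45.5 CPM in the aggressive tumours, against 566, 897 and 409 CPM in the parental tumours. The groups did not overlap, and all 7 tested members had a negative difference, with a median of -1.08. Nearly all of the sum was Ltf, lactoferrin, which mammary epithelium also makes, and it was not called (log2 difference -2.16 ± 0.69, adjusted p = 0.0924). S100a8, a neutrophil protein, was lower (log2 difference -3.45 ± 0.63, adjusted p = 0.00943) and held with any 1 tumour left out but not in the summed fit (adjusted p = 0.0736), while its partner S100a9 stayed low in both groups (log2 difference -0.54 ± 0.79, adjusted p = 0.738) and Ly6g and Ngp did not reach the level for testing. Of 18 fibroblast markers 0 were called by edgeR, DESeq2 or limma-voom and 2 had an unadjusted p under 0.05, with a median of -0.40.

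One chromosome segment stood out by position. In the distal part of chromosome 16, from Mrpl39 to the end of the annotated genes (mm10, chr16:84717576-98031801), 55 of 95 genes tested were lower and 0 higher. The background share of lower genes was 2.82%, and on the rest of chromosome 16, 5 of 485 genes were lower and 15 higher. The segment's bounds were read from these same values, so its counts are a description. Of its 79 genes that reach 2 CPM, 78 had a negative difference, with a median of -0.81 on the log2 scale and quartiles at -1.02 and -0.61. Relative to the mean of the parental tumours, the segment's median gene stood at -0.77, -0.69 and -0.83 in the 3 aggressive tumours, against 0.04, -0.02 and -0.01 in the 3 parental tumours. It stood between -0.10 and 0.00 in all 6 p66Low tumours, so the lowering was measured in the 3 p66High aggressive tumours and in none of the other 9. DNA copy number was not measured.

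The segment's genes have varied functions. Usp16, a deubiquitinase for histone H2A, measured 38.1, 36.0 and 37.0 CPM in the aggressive tumours, against 72.0, 65.9 and 75.2 CPM in the parental tumours (log2 difference -0.94 ± 0.08, adjusted p = 2.34e-04). C2cd2, a lipid transfer protein, measured 16.6, 17.0 and 15.9 CPM in the aggressive tumours, against 46.5, 43.7 and 42.7 CPM in the parental tumours (log2 difference -1.42 ± 0.11, adjusted p = 1.43e-04). Wrb, part of the machinery that inserts tail-anchored proteins, measured 18.1, 17.7 and 17.7 CPM in the aggressive tumours, against 38.7, 44.1 and 42.0 CPM in the parental tumours (log2 difference -1.22 ± 0.11, adjusted p = 2.71e-04). In each, 3 close aggressive values stood far from 3 close parental values. The interferon and cytokine receptor subunits encoded there were lower together: Ifnar1 (log2 difference -0.81 ± 0.09, adjusted p = 9.92e-04), Ifnar2 (log2 difference -0.93 ± 0.13, adjusted p = 0.00266), Ifngr2 (log2 difference -0.76 ± 0.09, adjusted p = 8.81e-04) and Il10rb (log2 difference -0.80 ± 0.16, adjusted p = 0.0133). Gabpa, a transcription factor for mitochondrial genes, was lower (log2 difference -0.65 ± 0.07, adjusted p = 6.00e-04), while its partner subunit Gabpb1, on chromosome 2, was higher (log2 difference 0.64 ± 0.09, adjusted p = 0.00211). Sod1, the cytosolic superoxide dismutase (log2 difference -0.51 ± 0.12, adjusted p = 0.0329), Cbr1, a carbonyl reductase (log2 difference -0.62 ± 0.13, adjusted p = 0.0176), and Atp5o, a subunit of the mitochondrial ATP synthase (log2 difference -0.88 ± 0.12, adjusted p = 0.00154), were lower too. App, the amyloid precursor protein, had lower values in all 3 aggressive tumours without passing the test (log2 difference -0.55 ± 0.16, adjusted p = 0.0627).

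Adamts1, a secreted metalloprotease of the segment, was also lower (log2 difference -1.17 ± 0.11, adjusted p = 3.61e-04). A larger fall was that of Clic6, a chloride channel protein, at 0.711, 1.02 and 0.431 CPM in the aggressive tumours, against 64.0, 14.0 and 20.8 CPM in the parental tumours (log2 difference -5.50 ± 0.78, adjusted p = 0.00238). Usp16, C2cd2, Wrb, Ifnar1, Ifnar2, Ifngr2, Gabpa, Atp5o, Adamts1 and Clic6 held with any 1 tumour left out, and Clic6 was lost with limma-voom (adjusted p = 0.0826). Il10rb was lost without parental replicate 1 or aggressive replicate 3 (adjusted p up to 0.0564), and Sod1 and Cbr1 were lost in 5 of these fits (adjusted p up to 0.108 and 0.0734). The difference between the 2 selections was called for 51 of the segment's 95 genes. On chromosome 15 the calls leaned the other way, with 38 of 714 genes higher and 5 lower and a median of 0.11, and in the p66Low selection the chromosome's median was -0.31.

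Elsewhere, 14 of 248 windows of 10 Mb held calls of 1 direction at 3 times the share over all genes or more, with at most 6 such calls in a window. One was the first 10 Mb of chromosome 6. There 5 of 38 genes tested were called lower and 1 higher, against 2.82% and 3.11% of all genes tested. Another, from 30 to 40 Mb of chromosome 8, held 6 of 40 genes called higher. The lower genes of the chromosome 6 window included Dlx5, a homeobox factor of limb and bone development, at 0.305, 0.157 and 0.216 CPM in the aggressive tumours, against 0.947, 0.880 and 1.12 CPM in the parental tumours (log2 difference -2.08 ± 0.35, adjusted p = 0.00643). They also included Dlx6os1, a non-coding RNA beside it, at 1.55, 2.51 and 3.36 CPM in the aggressive tumours, against 10.4, 14.5 and 15.5 CPM in the parental tumours (log2 difference -2.46 ± 0.43, adjusted p = 0.00789). The groups were apart for both genes.

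**Figure D4:**
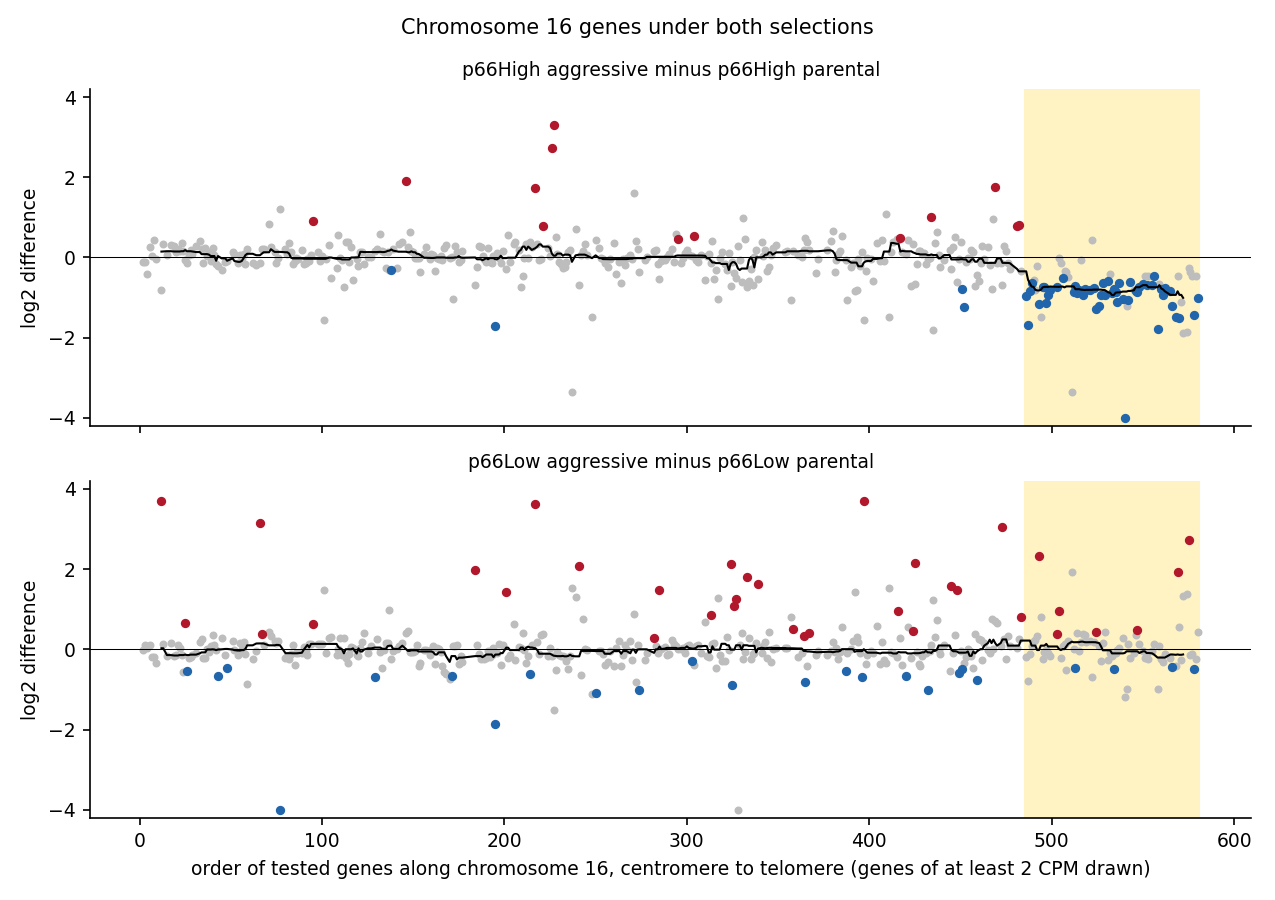
Log2 differences, aggressive minus parental, of chromosome 16 genes that reach 2 CPM in a p66High group, in their order along the chromosome on the x axis. The p66High tumours are in the upper panel and the p66Low tumours in the lower. Red and blue points are genes called higher and lower, values beyond 4 are drawn at the edge, the black line is a running median over 15 genes and the shaded part is the segment that begins at Mrpl39. The line drops below 0 in the shaded part of the upper panel only.

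Named by the size of their change alone, the genes highest in the aggressive tumours, besides Hoxa10, came from many functions. Trpm3, a calcium channel, measured 90.6, 87.8 and 102 CPM in the aggressive tumours, against 12.7, 3.20 and 2.78 CPM in the parental tumours (log2 difference 3.91 ± 0.57, adjusted p = 0.00302). Celsr1, a cadherin of planar cell polarity, measured 20, 23.5 and 19.8 CPM in the aggressive tumours, against 2.03, 1.55 and 2.32 CPM in the parental tumours (log2 difference 3.41 ± 0.53, adjusted p = 0.00431). Dlgap1, a synaptic scaffold, measured 11.5, 6.72 and 8.33 CPM in the aggressive tumours, against 0.474, 0.281 and 0.407 CPM in the parental tumours (log2 difference 4.48 ± 0.52, adjusted p = 9.57e-04). Each was several-fold above the parental range in all 3 aggressive tumours. Zfp641 (3.73 ± 0.44, adjusted p = 9.92e-04), the sulfotransferase Chst9 (3.55 ± 0.48, adjusted p = 0.00189) and the linker histone H1fx (3.35 ± 0.45, adjusted p = 0.00192) were also higher. All 6 held with any 1 tumour left out, and Celsr1 was lost in the summed fit (adjusted p = 0.0660). Gipr, a gut hormone receptor, had 0.431, 0.943 and 8.11 CPM in the aggressive tumours, against 0.0902, 0.211 and 0.0394 CPM in the parental tumours. Col2a1, a cartilage collagen, had 37.0, 57.8 and 498 CPM in the aggressive tumours, against 8.25, 10.8 and 13.5 CPM in the parental tumours. Aire, a transcription regulator of the thymus, had 0.812, 2.24 and 6.47 CPM in the aggressive tumours, against 0.429, 0.141 and 0.289 CPM in the parental tumours. Replicate 3 held by far the highest value of all 3. Without replicate 3 their log2 differences were 2.75, 2.12 and 2.33 and none passed the test.

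At the other end, Sptlc3, a subunit of the enzyme that starts sphingolipid synthesis, had 2 counts in the aggressive tumours together and 326 in the parental tumours, which is 96.3-fold lower (95% interval 26.5 to 799, counting error only). Sftpd, a collectin of airway surfaces, measured 0.152, 0.236 and 0.259 CPM in the aggressive tumours, against 3.20, 5.38 and 2.77 CPM in the parental tumours (log2 difference -4.15 ± 0.50, adjusted p = 0.00116). Ces1d, a carboxylesterase (log2 difference -3.91 ± 0.80, adjusted p = 0.0160), and Aldh1a7, an aldehyde dehydrogenase (log2 difference -3.91 ± 0.80, adjusted p = 0.0166), were lower too, and each lost the call in 3 of the fits with 1 tumour left out (adjusted p up to 0.0675 and 0.0601). Sptlc3 and Sftpd did not.

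The other genes of smallest p mostly had tight groups, though the parental values of Ggt1 were spread. Klhl22, an adaptor of a ubiquitin ligase, measured 31.5, 30.6 and 38.9 CPM in the aggressive tumours, against 8.37, 9.60 and 8.99 CPM in the parental tumours (log2 difference 1.91 ± 0.14, adjusted p = 1.43e-04). Bend4 measured 25, 22.2 and 22.9 CPM in the aggressive tumours, against 2.32, 2.96 and 2.91 CPM in the parental tumours (log2 difference 3.10 ± 0.26, adjusted p = 2.34e-04). Cd55, which protects cells from complement, measured 14.3, 17.7 and 14.1 CPM in the aggressive tumours, against 85.2, 78.2 and 76.4 CPM in the parental tumours (log2 difference -2.38 ± 0.22, adjusted p = 3.04e-04). Ggt1, which degrades extracellular glutathione, measured 3.10, 3.22 and 3.02 CPM in the aggressive tumours, against 13.2, 21.9 and 25.6 CPM in the parental tumours (log2 difference -2.70 ± 0.24, adjusted p = 3.03e-04). Il1f5, an antagonist of the interleukin 36 receptor, measured 0.203, 0.236 and 0.173 CPM in the aggressive tumours, against 2.95, 2.64 and 2.13 CPM in the parental tumours (log2 difference -3.63 ± 0.28, adjusted p = 1.43e-04). The X-linked homeobox gene Rhox4a was lower (log2 difference -2.49 ± 0.21, adjusted p = 2.35e-04), and reads may be shared with its tandem copies. All 6 held with any 1 tumour left out.

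How far these changes differed from those after selection of p66Low cells was tested by the difference of the 2 selection effects. With no more than 1 selected population named per line, the p66 level and the history of each population cannot be told apart. The p66High and p66Low comparisons share no tumour. Selection of p66Low cells changed 3221 genes (16.6%), and 341 genes were called in both comparisons, which is 29.7% of the p66High list and 10.6% of the p66Low list. Of these 341, 253 moved in the same direction. The effects differed for 2395 genes (12.4%), 847 (4.37%) with the more positive effect in p66High and 1548 (7.99%) with the more negative. Scaled by library size alone, the split was 545 and 1790, so the balance of directions depends on the scaling. Without the 3 tumours rich in lymph node genes (p66High parental replicate 3 and p66Low aggressive replicates 1 and 2), the count was 335. Of the 1150 genes called in p66High, 538 (46.8%) were also called for the difference.

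Hoxa10 was higher after both selections, with means of 2.21 CPM (aggressive) and 0.960 CPM (parental) in p66Low, but by more in p66High (difference 3.57, adjusted p = 7.61e-04). Trpm3 (2.84, adjusted p = 0.00650), Dlgap1 (2.88, adjusted p = 0.0157) and Zfp641 (3.08, adjusted p = 0.00129) also rose in the p66Low selection. For these 3 the difference of effects was not called (adjusted p = 0.374, 0.312 and 0.497). Sftpd (3.65, adjusted p = 9.49e-04), Adamts1 (2.33, adjusted p = 5.90e-06) and Cldn4 (2.15, adjusted p = 0.00100) rose in p66Low and fell in p66High.

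Dpysl5, a protein of axon growth, was the reverse. It measured 3.12, 2.32 and 1.90 CPM in the aggressive tumours, against 0.564, 0.281 and 0.367 CPM in the parental tumours (log2 difference 2.58 ± 0.44, adjusted p = 0.00705), and fell in the p66Low selection (-3.39, adjusted p = 0.00113). Gabrr1, a GABA receptor subunit (6.59, adjusted p = 0.00288), Sox14 (6.02, adjusted p = 0.0291), Gipr (6.85, adjusted p = 0.0167) and Col10a1 (5.10, adjusted p = 4.64e-04) were the other genes of largest positive difference. In p66High alone Gabrr1, Sox14 and Col10a1 were not called (0.0672, 0.152 and 0.0628, adjusted p). Among the most negative differences were those of the lymphocyte and lymph node genes Fcer2a, Cr2, Ccl19 and Ccl21a. None of these 4 was called in p66High (adjusted p 0.181 to 0.253), where they were measured almost only in parental replicate 3. Their p66Low means were 8.30, 29.6, 6.52 and 7.98 CPM in the aggressive tumours and at most 0.0894 CPM in the parental tumours.

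**Figure D5:**
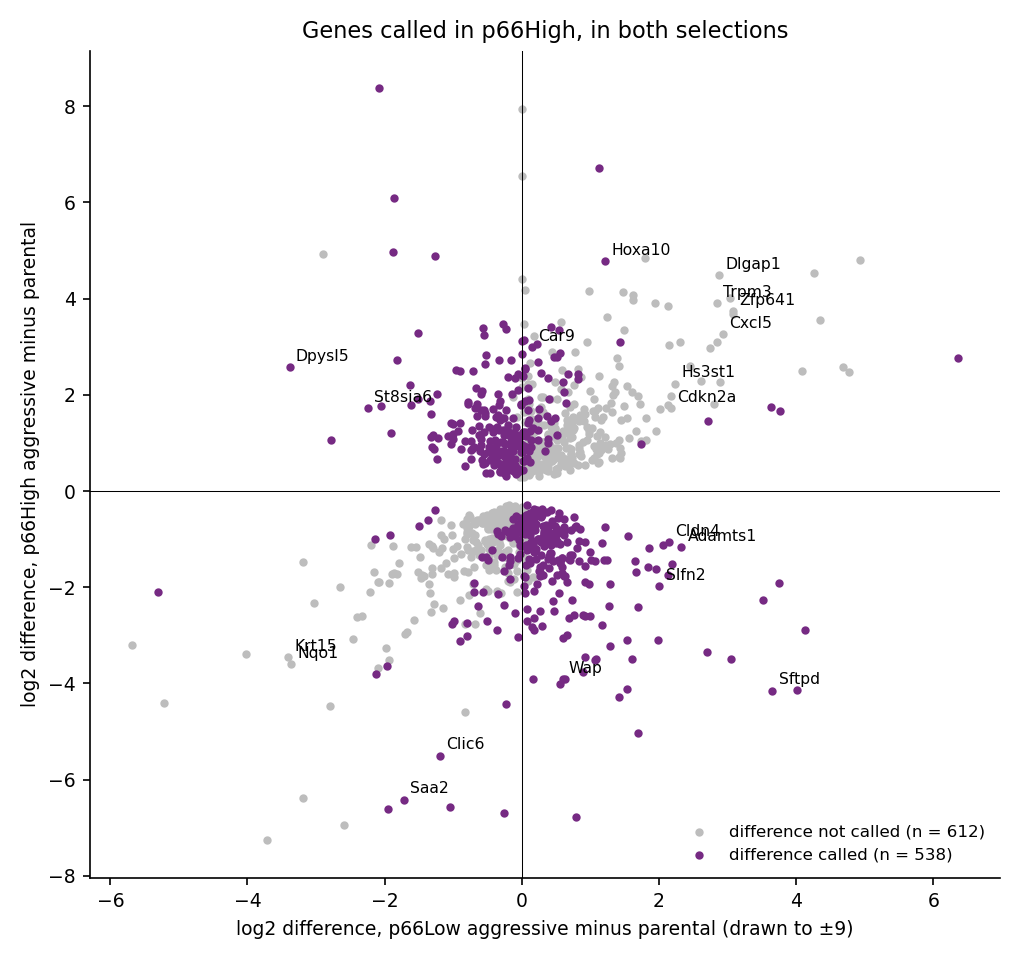
Log2 differences of the 1150 genes called in p66High, aggressive minus parental in p66High tumours on the y axis and aggressive minus parental in p66Low tumours on the x axis. Purple points are the 538 genes whose 2 effects differ at an adjusted p under 0.05, grey points the rest. Trpm3, Zfp641 and Nqo1 lie toward the diagonal, Sftpd, Cldn4 and Dpysl5 in the quadrants of opposite direction.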

How the data were processed

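RNA-seq of rRNA-depleted total RNA from whole tumours was deposited as one table of raw counts per gene for 12 tumours (39017 genes). Per the submitters' processing notes, Trimmomatic 0.32, STAR 2.3.0e and featureCounts 1.4.4 were named with the mm10 build, and the deposited counts were not normalized. The strand setting of the counting is not given in the sources used here, so genes that overlap on opposite strands may share reads. Gene positions and types come from GENCODE M21, which matched 96.6% of the identifiers.

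Genes were kept with edgeR's filterByExpr (19370 genes), scaled by TMM and tested with the quasi-likelihood F-test of edgeR 4.0.16 in R 4.3.3, in a single fit of 4 groups and 12 tumours. Adjusted p-values are Benjamini-Hochberg values over all genes tested, called under 0.05, and the standard error is the log2 difference divided by the root of F. The steps were tested on simulated data, where they called 14.9% of 1.5-fold, 65.7% of 2-fold and 95.5% of 4-fold changes. A gene that was not called can therefore still have changed by a small amount.

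Named genes are Shc1 and Erbb2, the 10 highest, 10 lowest and 10 of smallest p among called protein-coding genes reaching 2 CPM, up to 6 called members of each list with 2 or more, 5 at each end of the difference of effects, and up to 5 called genes of each enriched chromosome window; 1 gene of the rule is not reported here. Other genes (regulators, uncalled list members, 7th and later members, further genes of the chromosome 16 segment) were chosen after their values were seen. The lists and comparisons were chosen with earlier results of these data known. Alternatives were other scalings, filters and tools (DESeq2 1.42.0, limma 3.58.1 voom), fewer tumours and each tumour left out in turn. Intervals and floors cover counting error only.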

Additional observations from a re-analysis of the deposited data

Results flagged for a closer look

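The genes listed here are those named in the text for which the selection effect in p66High tumours differed from that in p66Low tumours, by the interaction contrast of the same edgeR fit at an adjusted p under 0.05. They number 98, of which 34 had the more positive effect in p66High and 64 the more negative, with adjusted p from 2.42e-06 to 0.048. Whether the call of each of these genes for the difference holds in the alternative fits was not tested. Each value is the difference of the 2 log2 effects, p66High minus p66Low, so it can come from either selection. Among the acute phase and defence genes listed, the p66Low effect ran from -1.96 for Il1f5 to 2.78 for Ltf. For genes without counts in a group (Fcer2a, Cr2, Ccl19, Ccl21a, Glycam1, Hoxb9) the size of the fitted value depends on the prior count and is no measure of fold.

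Among hypoxia, glycolysis and vessel genes the difference was 2.84 for Car9, 1.08 for Car12, 2.05 for Gapdh, 1.77 for Pfkp, 1.78 for Pgk1, 1.31 for Ldha, 1.09 for Vegfb and -1.66 for Vegfc. For mammary secretory and lipid genes it was -4.50 for Wap, -3.65 for Csn1s1, -1.95 for Btn1a1, -14.19 for Glycam1, -2.78 for Scd1, -1.21 for Thrsp, -1.31 for Cebpa, 0.61 for Cebpb, 0.82 for Prlr, -3.01 for Lpl and -6.73 for Retn. For acute phase and defence genes it was -4.65 for Saa1, -4.69 for Saa2, -4.94 for Ltf, -5.09 for Slpi, -1.84 for Cp, -1.62 for Muc1, -2.39 for Il1b, -1.67 for Il1f5, -4.38 for S100a8, -1.36 for Cd14, -0.99 for Mertk, -2.26 for Tlr2, -0.77 for Tlr4, -1.40 for Card9, -3.99 for Slfn2, -3.21 for Slfn3, -4.59 for Slfn4 and -2.13 for Cd55.

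For lymphocyte and lymph node genes it was -19.96 for Fcer2a, -18.88 for Cr2, -16.53 for Ccl19 and -16.37 for Ccl21a. For growth factor and ERK genes it was 2.64 for Nrg1 and 1.79 for Spry4. For developmental transcription factors it was 3.57 for Hoxa10, 2.3 for Hoxa9, -7.56 for Hoxb9, 1.55 for Sox8, 1.70 for Sox10, 1.13 for Sox12, 6.02 for Sox14, 0.98 for Twist1, 0.53 for Grhl2, 3.97 for Aire, -2.26 for Dlx5, -2.53 for Dlx6os1, -3.34 for Zfp521 and -2.76 for Rhox4a.

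For junction, keratin, matrix and glycan genes it was -2.21 for Cldn3, -3.22 for Cldn4, -1.97 for Krt10, -1.78 for Oxtr, -2.48 for Col7a1, 5.10 for Col10a1, 1.30 for Col11a1, -1.54 for Lama1, 2.98 for Celsr1, 1.13 for St3gal5, 2.83 for St8sia5, 3.96 for St8sia6, -2.67 for St6galnac4 and 1.96 for Has3. For genes of distal chromosome 16 it was -0.85 for Usp16, -0.93 for C2cd2, -0.79 for Wrb, -0.77 for App, -0.77 for Mrpl39, -0.74 for Gabpa, -0.73 for Atp5o, -0.58 for Sod1, -1.01 for Ifnar1, -1.32 for Ifnar2, -0.94 for Ifngr2, -0.98 for Il10rb, -3.49 for Adamts1 and -4.31 for Clic6. For the remaining genes it was 0.59 for Gabpb1, 0.86 for Ccng1, -2.04 for Fas, 1.51 for Klhl22, 1.66 for Bend4, -1.71 for Ggt1, -7.80 for Sftpd, -5.51 for Sptlc3, -4.54 for Ces1d, -4.08 for Aldh1a7, 5.97 for Dpysl5, 6.59 for Gabrr1 and 6.85 for Gipr.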

How the results depend on the processing

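The count of 1150 genes between p66High aggressive and p66High parental tumours was 2261 with DESeq2, 71 against a minimum log2 fold change of 1, 305 with tumours sharing a title number summed, 586 without the 3 tumours with high lymph node genes, and 457 to 756 with 1 tumour left out. The count of 2395 for the difference of the selection effects was 307 against a minimum log2 fold change of 1, 1179 with tumours sharing a title number summed, 335 without those 3 tumours, and 1179 to 3278 with 1 tumour left out. The cause was not tested. Both counts stayed within 1.5 times under the other scalings, the filters, the robust fit and limma-voom, and the share of positive differences of effects fell to 23.3% with library size alone, against 35.4% as reported. Of the same 198 called genes, 80 held with any 1 tumour left out, 118 lost the call in at least 1 of these fits and 91 without aggressive replicate 3, and none changed direction under any alternative. No paired analysis was possible because the labels give the groups no shared replicate numbers. Low counts limit Sptlc3, Hoxb9 and the lymph node genes, where intervals are wide.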

Other observations

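Enzymes that build the sugar coat of the cell surface changed in opposite directions. Their values were known when this group and the others here were chosen. Of 4 heparan sulfate 3-O-sulfotransferases tested, 2 were higher: Hs3st1, at 44.6, 39.7 and 35.0 CPM in the aggressive tumours, against 11.4, 4.75 and 9.04 CPM in the parental tumours (log2 difference 2.23 ± 0.35, adjusted p = 0.00421), and Hs3st3a1, at 17.1, 6.76 and 13.8 CPM in the aggressive tumours, against 2.41, 1.27 and 1.82 CPM in the parental tumours (log2 difference 2.76 ± 0.41, adjusted p = 0.00335). Of 17 sialyltransferases, 5 were higher and 1 lower, while the median of the family was below 0, at -0.29. St8sia5, which makes polysialylated gangliosides, measured 5.69, 5.03 and 2.37 CPM in the aggressive tumours, against 0.474, 0.352 and 0.709 CPM in the parental tumours (log2 difference 3.05 ± 0.36, adjusted p = 0.00101), and St3gal5, the GM3 synthase, measured 102, 76.8 and 77.0 CPM in the aggressive tumours, against 39.3, 23.4 and 44.3 CPM in the parental tumours (log2 difference 1.25 ± 0.22, adjusted p = 0.00740). St6galnac4 was the lower one, at 7.23, 7.66 and 5.65 CPM in the aggressive tumours, against 21.2, 15.6 and 18.6 CPM in the parental tumours (log2 difference -1.43 ± 0.20, adjusted p = 0.00218). Has3, a hyaluronan synthase, was higher (log2 difference 2.34 ± 0.38, adjusted p = 0.00503). These 6 held with any 1 tumour left out, though Has3 was lost in the summed fit (adjusted p = 0.0539), whereas St8sia6, St3gal4 and St6galnac2 lost their calls in 3 to 5 of these fits (adjusted p up to 0.0933, 0.0794 and 0.0856).

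Some Toll-like receptor and Schlafen genes were lower. Of 12 Toll-like receptors 4 were lower and 0 higher, among them Tlr4, the lipopolysaccharide receptor, at 51.8, 50.9 and 43.4 CPM in the aggressive tumours, against 77.5, 91.4 and 66.2 CPM in the parental tumours (log2 difference -0.68 ± 0.12, adjusted p = 0.00789). Card9, an adaptor of fungal sensing, measured 3.63, 3.38 and 2.80 CPM in the aggressive tumours, against 9.16, 11.6 and 10.4 CPM in the parental tumours (log2 difference -1.66 ± 0.18, adjusted p = 6.00e-04). Of 7 Schlafen genes 3 were lower and 0 higher, and Slfn4 measured 0.812, 2.12 and 0.863 CPM in the aggressive tumours, against 11.5, 22.2 and 9.40 CPM in the parental tumours (log2 difference -3.51 ± 0.54, adjusted p = 0.00384). These 3 genes held with any 1 tumour left out, though Tlr4 was lost in the summed fit (adjusted p = 0.0621), while Tlr2, Tlr5, Slfn2 and Slfn3 lost their calls in 2 to 6 of these fits (adjusted p up to 0.0620, 0.0549, 0.150 and 0.109). Myeloid cells express several of these genes, and macrophage markers summed to 1045, 1124 and 820.3 CPM in the aggressive tumours, against 1256, 1464 and 1050.2 CPM in the parental tumours. Neutrophil markers, mostly Ltf, summed to 216, 157 and 45.5 CPM in the aggressive tumours, against 566, 897 and 409 CPM in the parental tumours. The part of either list in the falls was not tested.

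Of 11 laminin chains 3 were lower and 1 higher. Lama1, a chain of early basement membranes, measured 9.80, 15.7 and 4.62 CPM in the aggressive tumours, against 42.9, 41.8 and 44.8 CPM in the parental tumours (log2 difference -2.10 ± 0.33, adjusted p = 0.00443) and held with any 1 tumour left out. Lama3 and Lamc3 did not hold in all of these fits (adjusted p up to 0.140 and 0.0566). Zfp521, a zinc finger factor of progenitor cells, measured 4.42, 6.09 and 3.54 CPM in the aggressive tumours, against 22.7, 29.7 and 31.9 CPM in the parental tumours (log2 difference -2.58 ± 0.34, adjusted p = 0.00154), and held in all 6. Slc40a1, the iron exporter ferroportin, measured 4.29, 6.56 and 5.44 CPM in the aggressive tumours, against 20.6, 19.4 and 15.1 CPM in the parental tumours (log2 difference -1.76 ± 0.30, adjusted p = 0.00690), and fell as well after selection of the p66Low cells (-1.42, adjusted p = 0.00933).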
